A study of Mus musculus with 136 samples.

Results

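Collagens and laminins are the main fibre and sheet proteins of the extracellular matrix, and their transcripts were followed here in mouse concepti at embryonic day E8.5. All rows of the count table whose symbol names a collagen chain (Col, a type number, a and a chain number) or a laminin chain (Lama, Lamb or Lamc and a number) were taken as members. The rule chose 54 of 47643 rows, of which 43 are collagens and 11 are laminins. It used names alone and no measured value. Col6a5, whose row carries no symbol, was not taken.

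The concepti are of the NOD strain, in which females become diabetic spontaneously, and were sired by normoglycemic NOD males. Embryo and visceral yolk sac were sequenced separately for each of 66 concepti. Dams are called normal (105 to 164 mg/dl blood glucose in the labels) or diabetic (423 to 595 mg/dl, with a litter given only as above that range). Each tissue had 17 concepti per maternal condition at 5–6 somite pairs and 16 per condition at 7–9 somite pairs. At 5–6 somite pairs these came from 10 normal and 9 diabetic litters, and at 7–9 somite pairs from 7 normal and 6 diabetic litters, with 7 of the later 16 diabetic concepti from litter D24M15. The labels of yolk sacs give no stage, so each received that of the embryo with the same conceptus name.

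Collagens share a triple helix of chains. Type IV collagen, a network protein, and laminins, which join an alpha, a beta and a gamma chain, are the base of every basement membrane, the thin sheet on which epithelia and endothelia rest. Types I, III and V collagen form the fibrils of connective tissue, and types II, IX and XI those of cartilage and of the sheath of the notochord. In the visceral yolk sac, a basement membrane separates the visceral endoderm, which takes up nutrients, from a mesoderm in which the first blood cells and vessels form.

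The genes of the main type IV chains, Col4a1 and Col4a2, lie head to head on chromosome 8. In GENCODE M21 on GRCm38, Col4a1 runs from 11198423 to 11312826 on the minus strand and Col4a2 from 11312805 to 11449287 on the plus strand, so that the gene models overlap by 22 bases. Their promoters are printed because the levels of this pair are set side by side further on. The windows reach from 250 bases before to 50 bases after each RefSeq start on GRCm38.p6, chr8:11312777-11313076 on the minus strand for Col4a1 and chr8:11312555-11312854 on the plus strand for Col4a2. Capitals mark the 78 bases, 11312777 to 11312854, that both windows hold, read on opposite strands.
Col4a1: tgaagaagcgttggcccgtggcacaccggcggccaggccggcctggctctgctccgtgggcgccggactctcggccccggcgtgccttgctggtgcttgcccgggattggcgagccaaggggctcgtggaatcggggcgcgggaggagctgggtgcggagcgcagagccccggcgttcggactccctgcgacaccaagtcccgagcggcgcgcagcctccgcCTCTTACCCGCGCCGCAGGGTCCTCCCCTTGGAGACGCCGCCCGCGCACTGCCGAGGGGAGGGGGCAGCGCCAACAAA
Col4a2: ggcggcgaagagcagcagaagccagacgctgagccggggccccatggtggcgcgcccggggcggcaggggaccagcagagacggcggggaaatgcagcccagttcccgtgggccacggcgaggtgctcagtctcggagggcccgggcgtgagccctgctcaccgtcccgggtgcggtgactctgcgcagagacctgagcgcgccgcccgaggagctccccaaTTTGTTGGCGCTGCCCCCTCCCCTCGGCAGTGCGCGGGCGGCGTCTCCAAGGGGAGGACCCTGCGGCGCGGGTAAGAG
The windows are 74.0% and 73.7% G or C, against a median of 52.7% over all 32851 RefSeq windows of this length. On either strand, both hold the letters GGGCGG, found in 35.7% of all windows, and CCAAT, found in 37.4%. Neither holds TATAAA, found in 13.6% of all windows. Of 43 windows of 39 matched members, 25 hold GGGCGG, 14 CCAAT and 5 TATAAA. Other members are neighbours as well. Col4a5 and Col4a6 lie head to head on the X chromosome with starts 1309 bases apart, and Col3a1 and Col5a2 tail to tail on chromosome 1 with 24614 bases between them.

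Levels are given as normalized counts, which are counts of molecules divided by a library size factor from DESeq2 over the libraries of both tissues. The libraries were read from the 3′ end and each molecule was counted once, so levels of different genes can be compared without a correction for length. Library totals ran from 1017901 to 5658850 counts. At this depth, 22 of the 54 members reached a mean of 20 normalized counts in at least 1 group and 6 reached 200. A mean below 1 in every group was found for 12 members. Among these were Col10a1 of hypertrophic cartilage, with 1 count over all libraries, Col4a3 with 2 and Col4a4 with 62, the type IV chains of mature kidney, Col17a1 of hemidesmosomes with 31, and Lama3, the alpha chain of epidermal laminin, with 54.

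In embryos, Lamb1, the common laminin beta chain, led the members with 326 ± 43.1 normalized counts (SD, n = 17) at 5–6 somite pairs under normal conditions, which was 18.1% of the sum over members. Col18a1, the basement membrane collagen that carries endostatin, had 261, Col4a1 224 and Col1a1, the main chain of type I collagen, 117. Under diabetic conditions at 7–9 somite pairs, the mean of Col18a1 (283) stood before that of Lamb1 (275), with Col18a1 the higher in 9 of 16 libraries. In yolk sacs Col4a1 led in every group, with 629 ± 144 (n = 17) at 5–6 and 754 ± 121 (n = 16) at 7–9 somite pairs under normal conditions, and made up 25.2% to 26.8% of the member sum. Lamb1 and Col1a1 followed it at 344 and 281, and at 336 and 350.

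**Figure D1:**
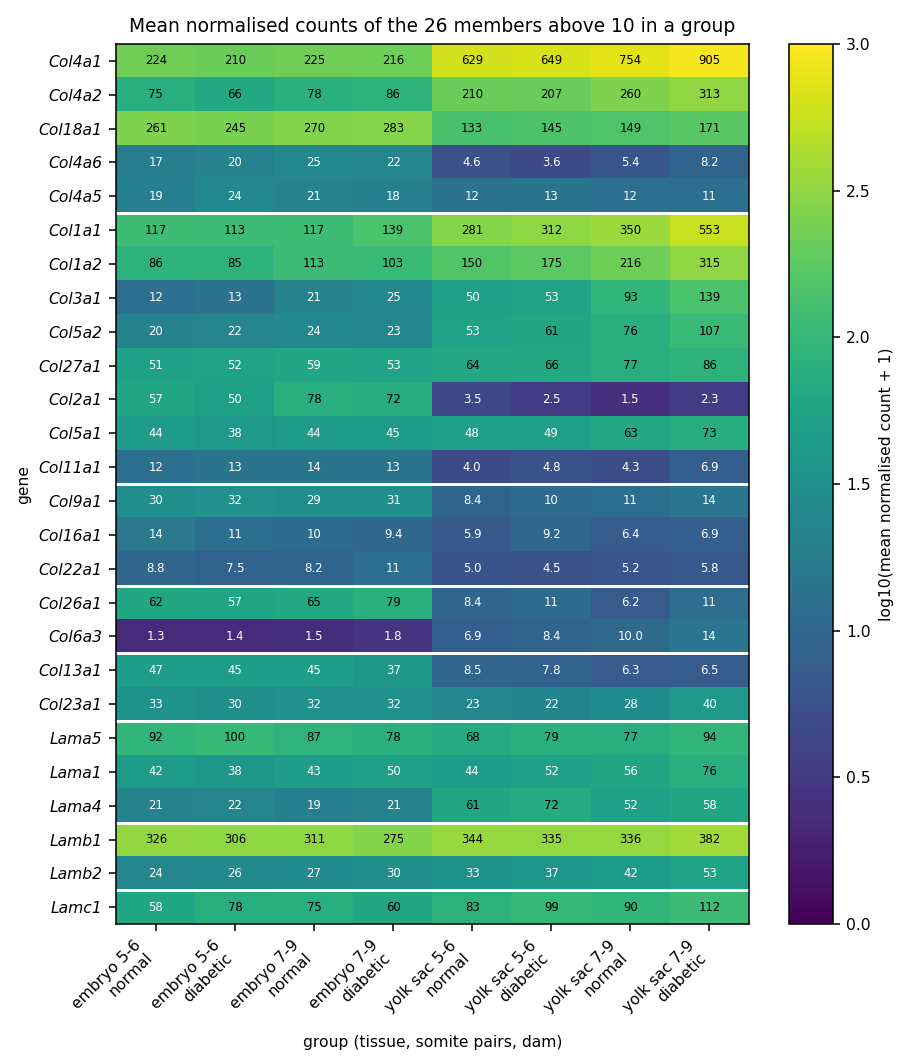
Mean normalized counts of the 26 members that reached a mean of 10 in at least 1 group, for the 8 groups of tissue, stage and maternal condition (printed numbers; colour on a log10 scale of the mean plus 1). Col4a1 has the highest mean in every yolk sac group, and Col2a1 lies at or below 3.49 in yolk sacs and at or above 50.4 in embryos.

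The sum over all members was 1804, 1750, 1890 and 1866 in embryos (normal and diabetic at 5–6, then normal and diabetic at 7–9 somite pairs) and 2361, 2506, 2813 and 3593 in yolk sacs. In this order of groups, basement membrane collagens summed to 598, 567, 620 and 627 in embryos and to 990, 1020, 1181 and 1410 in yolk sacs. Fibrillar collagens summed in embryos to 403, 393, 476 and 481, and in yolk sacs to 656, 723, 883 and 1283. Fibril-associated collagens and transmembrane collagens went the other way, with sums of 65.2 to 73.6 and of 71.0 to 81.8 in embryos against 24.4 to 38.0 and 30.3 to 46.4 in yolk sacs.

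Embryo and yolk sac were compared within each condition and stage with edgeR's quasi-likelihood test, with Benjamini-Hochberg adjustment over all genes tested, and a gene with an adjusted p under 0.05 is called. Log2 fold changes are given as yolk sac over embryo. The tissues differ in most genes, so the background is high. At 5–6 somite pairs under normal conditions 70.6% of all genes tested were called, and 20 of the 23 members that passed the filter on low counts, 10 higher and 10 lower in the yolk sac (35.1% and 35.5% of genes). At 7–9 somite pairs under normal conditions 75.2% of genes were called and 20 of 23 members, 12 higher and 8 lower (35.7% and 39.5% of genes). Under diabetic conditions it was 70.9% of genes and 22 of 24 members at 5–6 somite pairs, 13 higher and 9 lower (36.2% and 34.7% of genes). At 7–9 somite pairs it was 72.8% of genes and 21 of 22 members, 14 higher and 7 lower (35.1% and 37.6% of genes). Among basement membrane collagens 2 of 5 tested were higher and 3 lower in each comparison, among fibrillar collagens 5 or 6 were higher and 1 or 2 lower, and of 6 laminins 3, 4, 5 and 6 were higher and 1, 0, 1 and 0 lower. A member present in a single tissue passes the filter through that tissue. Of the 22 members tested in all 4 comparisons, 10 were higher in the yolk sac in all 4 (Col1a1, Col1a2, Col27a1, Col3a1, Col4a1, Col4a2, Col5a2, Lama4, Lamb2 and Lamc1) and 7 were lower in all 4 (Col13a1, Col18a1, Col26a1, Col2a1, Col4a5, Col4a6 and Col9a1). The share of all genes called in the same direction in all 4 was not counted, so these numbers have no background beside them.

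Basement membrane collagens split by chain. Col4a1 was 121 to 296 in all embryos, with group medians from 215 to 229, and 281 to 1698 in yolk sacs, with medians of 601 and 646 at 5–6 and 704 and 797 at 7–9 somite pairs (normal, then diabetic). Its ranges in embryo and yolk sac did not overlap in any of the 4 comparisons. The log2 fold change was 1.52 ± 0.11 (SE, n = 17 per tissue, edgeR adjusted p = 3.95e-16) and 1.75 ± 0.08 (n = 16, adjusted p = 6.12e-22) under normal conditions at the 2 stages, and 1.71 ± 0.09 (adjusted p = 1.47e-19) and 2.06 ± 0.13 (adjusted p = 9.6e-17) under diabetic conditions.

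Col4a2, its partner in the type IV trimer, had medians from 60.9 to 84.7 in embryos and of 225, 202, 261 and 318 in yolk sacs. The tissues overlapped under normal conditions at 5–6 somite pairs (50.4 to 101 in embryos, 87.1 to 292 in yolk sacs) and in no other comparison. Its log2 fold change of 1.51 ± 0.12, 1.74 ± 0.11, 1.72 ± 0.13 and 1.87 ± 0.13 (normal at 5–6 and 7–9, then diabetic) was close to that of Col4a1 (edgeR adjusted p at most 1.84e-14).

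Col18a1, Col4a5 and Col4a6 were lower in the yolk sac. Col18a1 had medians of 241 to 278 in embryos and 139 to 176 in yolk sacs, with overlapping ranges in all comparisons, and log2 fold changes from −0.93 ± 0.11 to −0.68 (edgeR adjusted p at most 1.9e-07). Col4a6, which pairs with Col4a5 in a type IV trimer, ranged from −1.41 to −2.35, and Col4a5 from −0.62 to −0.87.

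Col1a1, Col1a2, Col3a1 and Col5a2, chains of the connective tissue fibrils, were higher in the yolk sac in all 4 comparisons. Col3a1, the chain of type III collagen, had medians in embryos of 11.5, 11.1, 21.9 and 21.7 and of 49.8, 49.4, 88.8 and 115 in yolk sacs. Its ranges did not overlap under diabetic conditions at 7–9 somite pairs (11.3 to 51.6 in embryos, 85.9 to 307 in yolk sacs) and overlapped in the other comparisons. The log2 fold changes were 2.15 ± 0.21, 2.20 ± 0.26, 2.06 ± 0.27 and 2.49 ± 0.21 (edgeR adjusted p at most 1.7e-08). Col1a1 differed by 1.3, 1.58, 1.54 and 2.0, Col1a2 by 0.85, 0.95, 1.11 and 1.60, and Col5a2, a chain of type V collagen, by 1.42, 1.64, 1.51 and 2.22. Col5a1, the other type V chain, had 0.17 under normal conditions at 5–6 somite pairs (not called, adjusted p = 0.255), and 0.52, 0.41 and 0.70 in the other comparisons.

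Col2a1, the chain of type II collagen, was the member most lowered in the yolk sac. Embryos had medians of 54.2, 54.3, 75.2 and 65.9 normalized counts, the lowest embryo 23.2, and yolk sacs medians of 1.45, 1.47, 1.21 and 1.92, the highest 29.9. Tissue ranges did not overlap within any condition and stage. The log2 fold changes were −3.82 ± 0.34, −5.39 ± 0.22, −4.21 ± 0.31 and −4.86 ± 0.28 (edgeR adjusted p at most 3.49e-13). Col9a1, which decorates type II fibrils, was lower by −1.10 to −1.77, and Col11a1, which starts such fibrils, by −1.60 under normal conditions at 7–9 and −1.37 under diabetic conditions at 5–6 somite pairs. Group means of Col11a1 were low, at 3.98 to 13.7, and it did not pass the filter in every comparison. Col13a1, a transmembrane collagen, fell from medians of 38.3 to 47.5 in embryos to 6.34 to 7.84 in yolk sacs (log2 fold change −2.40 to −2.73, no overlap in any comparison). Col26a1 was lower by −2.35 to −3.33.

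Laminin chains differed between the tissues to unlike extents. Lama4, an alpha chain of vessel walls, had log2 fold changes of 1.62, 1.44, 1.74 and 1.45. The beta chain Lamb2 had 0.52, 0.64, 0.60 and 0.79, and Lamc1, the gamma chain of most laminins, 0.55, 0.28, 0.41 and 0.87. For Lamc1 under normal conditions at 7–9 somite pairs the call depended on the design, with an edgeR adjusted p of 0.0368 for independent libraries and 0.0762 (log2 fold change 0.26) when embryo and yolk sac were paired by conceptus. Lamb1 was called only under diabetic conditions (0.21 and 0.48, adjusted p = 0.0361 and 7.28e-05) and had 0.11 and 0.12 under normal conditions, and the difference between conditions was not called. Lama1, the alpha chain of the first embryonic basement membranes, had 0.13 (not called), 0.39, 0.52 and 0.61 in the same order as Lama4. Lama5, an alpha chain of many epithelia, was lower in the yolk sac at 5–6 somite pairs (−0.39 normal, −0.27 diabetic), missed the threshold under normal conditions at 7–9 (−0.18, adjusted p = 0.136), and was higher under diabetic conditions at 7–9 (0.24, adjusted p = 0.0276). The Lamb1 call at 5–6 somite pairs was lost under 7 alternatives (log2 fold change 0.15 to 0.20, adjusted p = 0.0694 to 0.244), among them DESeq2 and another normalization. Without litter D24M15, the calls of Lama1, Lama5 and Col4a5 under diabetic conditions at 7–9 somite pairs were lost as well (adjusted p = 0.466, 0.174 and 0.113). Lama1 and Lama5 were also not called there (adjusted p = 0.225 and 0.063) without yolk sacs above 20 normalized counts of the decidual gene Prl8a2.

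**Figure D2:**
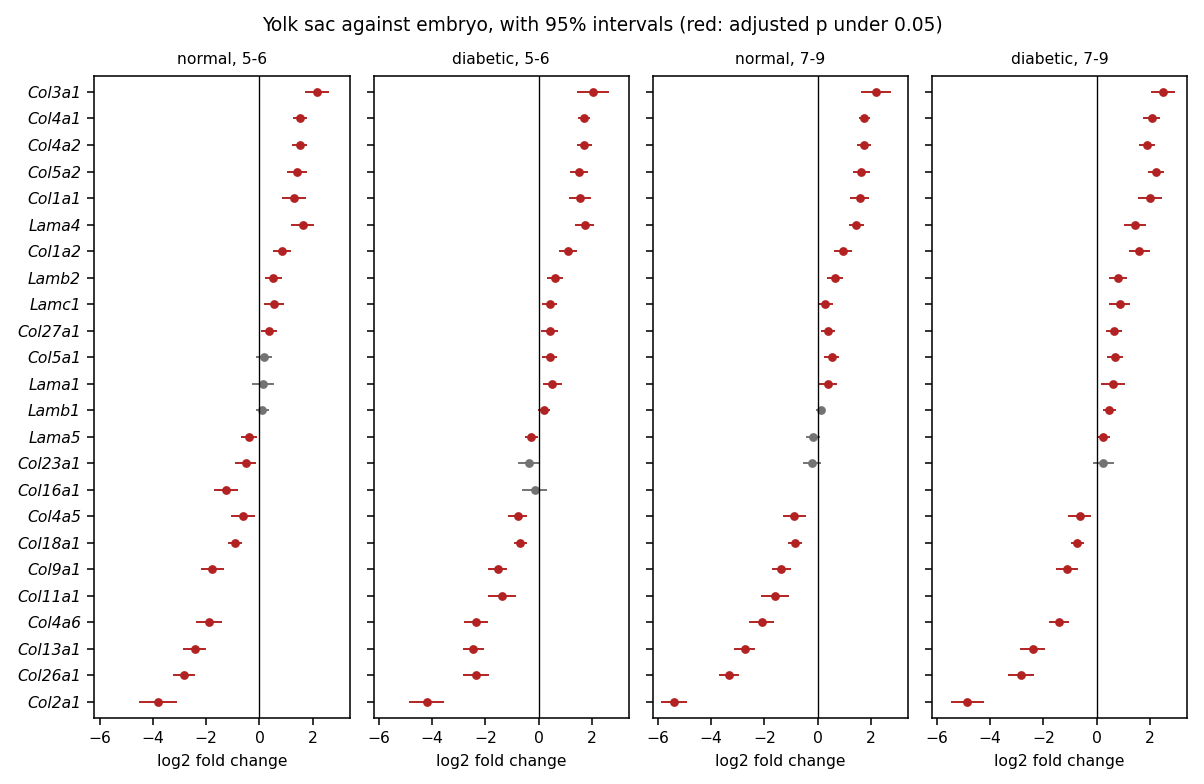
Log2 fold change of yolk sac over embryo with 95% interval for the members tested, by condition and stage; red marks an adjusted p under 0.05 in edgeR's quasi-likelihood test. Col3a1, Col4a1 and Col4a2 lie on the side of the yolk sac and Col2a1, Col26a1 and Col13a1 on the side of the embryo in each comparison.

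The labelled tissues were checked against markers. All 10 visceral endoderm genes were detected in both tissues, and stood in embryos at a median of 1.67% to 3.44% of their yolk sac level. Neural tube markers stood in yolk sacs at a median of 0.43% to 1.41% of their embryo level, and summed to 1102 to 1356 in embryos and 37 to 86.2 in yolk sacs, and heart markers to 1109 to 2117 and 88.8 to 184, with a highest yolk sac of 1373. Markers of endothelium (mean sums 478 to 591 in embryos, 817 to 877 in yolk sacs) and of extraembryonic mesoderm (315 to 378, and 703 to 890) were higher in yolk sacs. So were those of primitive erythroid cells (37.7 to 829, and 8464 to 21520). Mean sums overlapped between the tissues for notochord (211 to 249, and 198 to 222) and parietal endoderm (287 to 362, and 254 to 429), so these lists do not tell the tissues apart. The part of these cells in the member differences was not tested, and fewer cells of a type cannot be told apart from less RNA per cell in whole tissues. Trophoblast markers summed to at most 18.3 in any group mean.

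Genes that make, fold and read collagen were followed in fixed lists. Of all genes tested, 35.1%, 35.7%, 36.2% and 35.1% were higher in the yolk sac and 35.5%, 39.5%, 34.7% and 37.6% lower (normal at 5–6 and 7–9, then diabetic). Of 28 genes of collagen modification and assembly, 18 or 19 passed the filter, and 14, 15, 16 and 16 were higher in the yolk sac against 1, 2, 1 and 2 lower (normal at 5–6 and 7–9, then diabetic). Crtap, a part of the prolyl 3-hydroxylase complex, had log2 fold changes of 1.56 to 2.33 and Sec23a, a coat protein needed to export procollagen, 1.20 to 1.58. Of 22 other matrix proteins, 19 were tested, with 7, 7, 7 and 10 higher and 6, 6, 6 and 4 lower. Postn, periostin, had 2.76 to 3.68, and Fbn2, a fibrillin of microfibrils, −1.95 to −2.84. Of 10 proteases and inhibitors 2 were higher and 4 to 6 lower in each comparison, with the membrane-bound protease Mmp16 at −3.25 to −4.37 and Reck, a protease inhibitor, at 1.18 to 1.56. Among the 6 or 7 receptors tested of 13, 3 or 4 were higher and 2 or 3 lower.

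Stages were compared next, as 7–9 over 5–6 somite pairs within tissue and condition. In normal embryos 5 of 24 members tested were called, 4 higher and 1 lower, when 15.1% of all genes were called, 6.13% higher and 8.97% lower. In normal yolk sacs it was 2 of 17 members, both higher, and 7.84% of genes, 4.82% higher and 3.02% lower. In diabetic embryos it was 6 of 24 members, 5 higher and 1 lower, and 29.2% of genes, 15.1% higher and 14% lower. In diabetic yolk sacs it was 11 of 19 members, all higher, and 33.7% of genes, 18% higher and 15.7% lower. The median log2 fold change of the members tested was 0.05, 0.28, 0.10 and 0.49 in this order.

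Col3a1 was the only member called in all 4 stage comparisons, with concepti taken as independent. It rose by 0.83 ± 0.24 in normal embryos (n = 17 and 16, edgeR adjusted p = 0.0184), 0.91 ± 0.24 in diabetic embryos (adjusted p = 0.00476), 0.88 ± 0.23 in normal yolk sacs (adjusted p = 0.0137) and 1.39 ± 0.23 in diabetic yolk sacs (adjusted p = 1.56e-05). In normal embryos it was not called with littermates as a random block (0.72, adjusted p = 0.0528) or with counts summed per litter (0.92, adjusted p = 0.0785). Ranges of the stages overlapped in each case. By single somite numbers from 5 to 9, means in normal yolk sacs were 44.7, 60.7, 68.1, 85 and 136 (n = 11, 6, 7, 4 and 5), and in diabetic yolk sacs 41.0, 90.7, 118, 139 and 170 (n = 13, 4, 4, 9 and 3). Each somite number thus had a higher mean than the one before it in both conditions. Single steps were not tested, and 7 of the 16 diabetic yolk sacs at 7–9 somite pairs were of litter D24M15.

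In normal embryos Col2a1 rose by 0.42 ± 0.11 (edgeR adjusted p = 0.00739), Col1a2 by 0.40 and Col4a6 by 0.48, and Col16a1, a fibril-associated collagen, was lower by −0.49. None of these was called with counts summed per litter (adjusted p = 0.0613, 0.0784, 0.115 and 0.193). Nor were they with all 8 groups in 1 fit (0.197, 0.117, 0.0723 and 0.0752). In diabetic embryos Col2a1 (0.54), Col26a1 (0.48), Lama1 (0.42) and Col4a2 (0.39) were higher and Lama5 lower (−0.33). Without litter D24M15, Col2a1, Lama1, Col4a2 and Lama5 were not called (adjusted p = 0.104, 0.0544, 0.0752 and 0.155). Col26a1 was not called with counts summed per litter (adjusted p = 0.0778), nor were Col2a1 and Lama5 with littermates as a random block (0.0678 and 0.0749). In normal yolk sacs Col5a2 was the other member called, at 0.54 ± 0.13 (adjusted p = 0.00866). With counts summed per litter it was not called (0.56, adjusted p = 0.051).

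In diabetic yolk sacs all 6 fibrillar collagens tested rose. Col1a1 went from a median of 272 (174 to 557) at 5–6 to 453 (238 to 1039) at 7–9 somite pairs, a log2 fold change of 0.81 ± 0.19 (edgeR adjusted p = 0.00135), and Col5a2 from 56.2 (28.1 to 103) to 101 (82.3 to 162), a change of 0.81 ± 0.13 (adjusted p = 8.42e-06). Groups overlapped for both. Col1a2 rose by 0.83, Col23a1, a transmembrane collagen, by 0.81, Col4a2 by 0.59, Col5a1 by 0.57, Lama1 by 0.56, Lamb2 by 0.48, Col4a1 by 0.47 and Col27a1 by 0.36. Marker sums differed between these stages as well, with means of 20799 and 31710 for visceral endoderm and 8464 and 21520 for primitive erythroid cells. Means were 254 and 429 for parietal endoderm (medians 230 and 339), 68.2 and 121 for decidua (medians 36.7 and 59.5) and 876 and 817 for endothelium. The part of these cells was not tested. More than 20 normalized counts of Prl8a2, a hormone gene of the decidua, were found in 7 diabetic yolk sacs at 5–6 and 6 at 7–9 somite pairs, and in 0 and 1 normal ones. Without these libraries 7 members were called in diabetic yolk sacs, against 11 of 19 with all libraries, and Col27a1, Col4a1, Lama1 and Lamb2 were not. Without litter D24M15 Col27a1, Lama1 and Lamb2 were not called (adjusted p = 0.136, 0.565 and 0.0786).

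**Figure D3:**
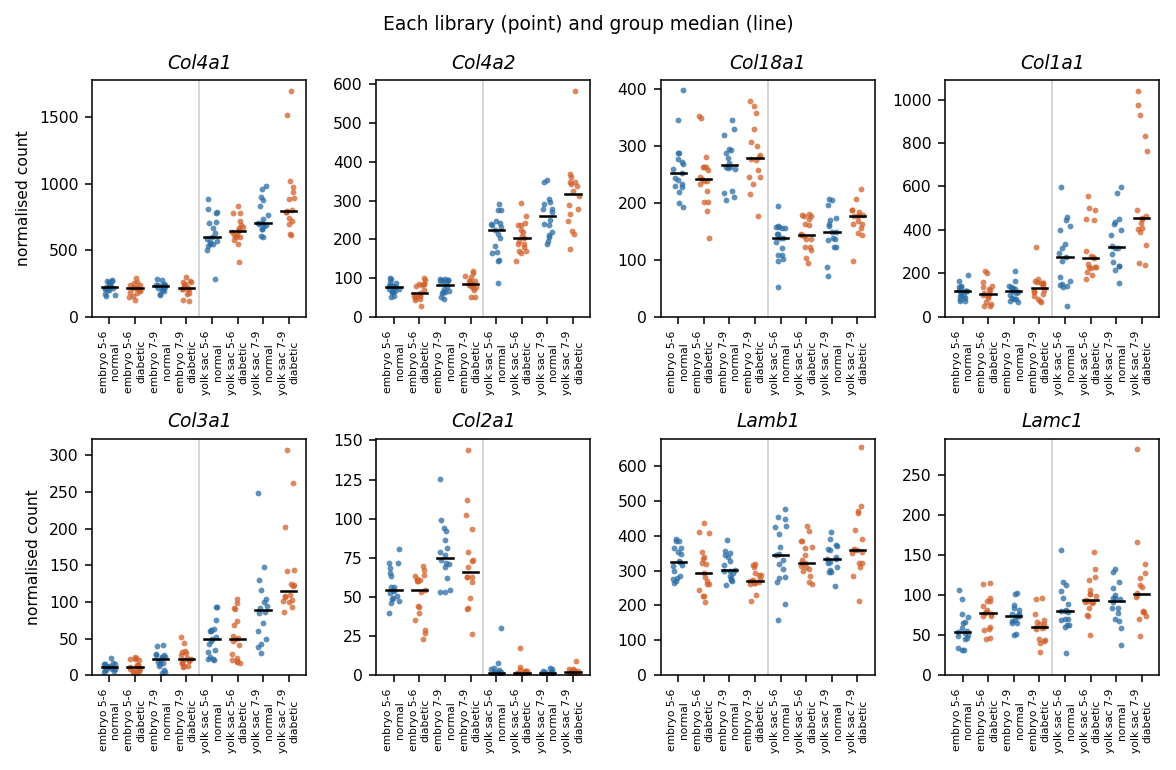
Normalized counts of leading members in each library, by tissue, stage and maternal condition. Points are blue for normal and orange for diabetic, lines are medians, and the axis is linear. For Col4a1 the yolk sacs lie above the embryos in every condition and stage, while diabetic and normal libraries of the same tissue overlap.

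The study asks how maternal diabetes alters expression, so diabetic was set against normal for each tissue and stage. By edgeR's quasi-likelihood test, 0 of 25 members tested were called in embryos at 5–6 somite pairs and 0 of 24 at 7–9, when 1.46% and 9.09% of all genes were called. In yolk sacs 0 of 18 were called at 5–6 and 0 of 19 at 7–9 somite pairs, with 0% and 0.0194% of all genes. An unadjusted p under 0.05 was reached by 3, 4, 0 and 10 members, where 21%, 27.4%, 8.42% and 10.9% of all genes passed. DESeq2 called 0, 1, 0 and 1. The 95% interval of the log2 fold change lay within 1 in either direction for 25 of 25, 24 of 24, 18 of 18 and 18 of 19 members tested.

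The smallest adjusted p in embryos belonged to laminin chains. Lamb1 at 7–9 somite pairs had 301 (260 to 388) under normal and 271 (214 to 318) under diabetic conditions, medians and ranges, which overlapped. The log2 fold change was −0.18 ± 0.06 (95% interval −0.30 to −0.06, n = 16 each, edgeR adjusted p = 0.0567), and DESeq2 gave an adjusted p of 0.0296, the lowest of 22 alternatives that went up to 0.381. Lamc1 had medians of 54.0 (30.8 to 106) and 77.5 (45.4 to 115) at 5–6 somite pairs, and 74.0 (50.1 to 103) and 59.7 (28.6 to 96.4) at 7–9 (normal, then diabetic). It was thus 0.43 ± 0.15 higher (adjusted p = 0.0983) and then −0.30 lower (adjusted p = 0.124) under diabetic conditions, neither past the threshold.

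The change of the diabetic effect on Lamc1 between stages was tested as an interaction over all 66 embryos. It was −0.72 ± 0.20 on the log2 scale (95% interval −1.12 to −0.33, edgeR adjusted p = 0.0198), the single member called of 25 tested, when 8.7% of all genes were called. It was −0.82 (adjusted p = 0.0113) with littermates treated as a random block and −0.75 (adjusted p = 0.0246) without litter D24M15. Heart markers changed side between the same groups, with mean sums of 1403 under normal and 1109 under diabetic conditions at 5–6 and of 1571 and 2117 at 7–9 somite pairs, and neural tube markers had 1356 and 1102, then 1343 and 1266. Their part in the Lamc1 values was not tested. In yolk sacs edgeR called 0 of 21 members for this interaction, when 0% of genes were called, and DESeq2 called 0 as well. An unadjusted p under 0.05 was found for 0 members and 5.84% of genes.

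In yolk sacs at 7–9 somite pairs all 19 members tested had a log2 fold change above 0, with a median of 0.28, against 0.02 over all genes. Marker sums of other tissues had higher means under diabetic conditions as well. Parietal endoderm sums were 210 to 399 under normal (mean 300, median 292) and 237 to 1440 under diabetic conditions (mean 429, median 339). The highest was that of the D28M36C yolk sac, with 1436 of Pth1r alone. Embryo groups had mean sums of 287 to 362 for this list, so it does not set yolk sacs apart. Decidua sums were 22.3 to 99.2 (mean 46.1, median 40.8) and 26.5 to 749 (mean 121, median 59.5). Of the 6 parietal endoderm markers Gkn2 had counts in 1 of these 32 yolk sacs, and of the 3 decidua markers Prl3c1 likewise. Their part in the member values was not tested beyond leaving libraries out. The largest member values belonged to fibrillar collagens. Col1a1 had a median of 321 (155 to 595) under normal and 453 (238 to 1039) under diabetic conditions, a log2 fold change of 0.65 ± 0.19 (95% interval 0.26 to 1.04, edgeR adjusted p = 0.26). Col5a2 had medians of 71.5 (50.8 to 112) and 101 (82.3 to 162), a log2 fold change of 0.48 ± 0.12 (0.25 to 0.72, adjusted p = 0.131). DESeq2 gave Col5a2 an adjusted p of 0.0367, the lowest of 24 alternatives that went up to 0.716. The groups overlapped for each gene. Lama1 had 0.42, and −0.03 without the yolk sacs high in Prl8a2. Averaged by litter, Col1a1 and Col5a2 lay above the normal median in 6 of 6 diabetic litters, and above all 7 normal litters in 4 and 2 of them. In yolk sacs at 5–6 somite pairs the members tested had a median of 0.15, and the smallest adjusted p was that of Lamc1 with 0.644.

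**Figure D4:**
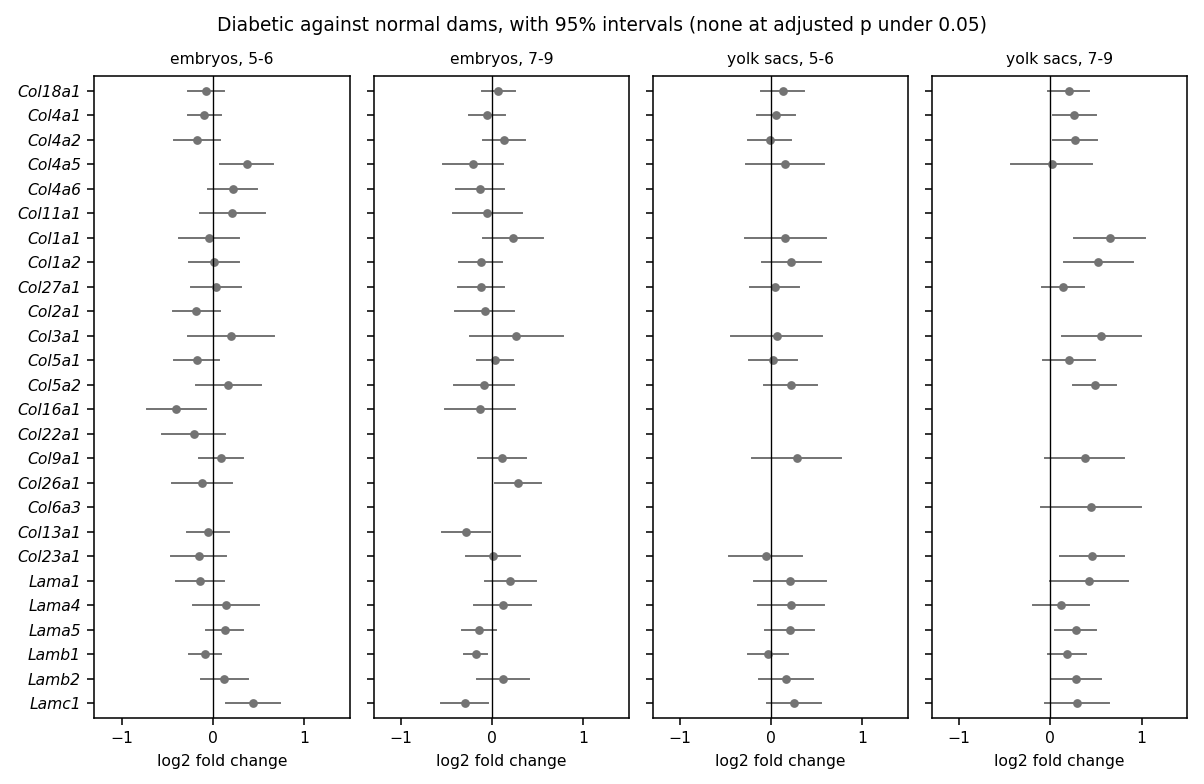
Log2 fold change of diabetic over normal with 95% interval for the members tested, by tissue and stage. No member has an adjusted p under 0.05 in edgeR's quasi-likelihood test, and in yolk sacs at 7–9 somite pairs all 19 lie above 0.

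The difference between the tissues in their diabetic effect gave 0 of 24 and 0 of 25 members called by edgeR at 5–6 and 7–9 somite pairs, when 0% and 0.389% of all genes were called. An unadjusted p under 0.05 was reached by 1 and 7 members, with 7.66% and 17.7% of all genes, and DESeq2 called 0 members at both stages. Of the partner genes, 4 of the 19 other matrix genes tested were called in embryos at 7–9 somite pairs, where 9.09% of all genes were. Npnt, nephronectin, was higher by 0.44 (edgeR adjusted p = 0.027) and Fbln1, fibulin 1, by 0.30 (adjusted p = 0.045) under diabetic conditions. Fn1, fibronectin, was lower by −0.35 (adjusted p = 0.034), and Frem2, a protein of the embryonic basement membrane, by −0.59 (adjusted p = 0.046). These calls take concepti as independent, with 7 of the 16 diabetic embryos from litter D24M15.

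Whether the difference between the tissues changed between stages was tested likewise. Under normal conditions edgeR called 0 of 24 members, with 0.0435% of all genes, and DESeq2 called 0. An unadjusted p under 0.05 was reached by 1 member and 12.1% of genes. Under diabetic conditions 3 of 25 were called (1.81% of genes). The signed stage change was higher in the yolk sac by 0.57 ± 0.14 for Lama5 (edgeR adjusted p = 0.0237), 0.76 ± 0.20 for Col5a2 (adjusted p = 0.0325) and 0.98 ± 0.27 for Col4a6 (adjusted p = 0.0395). The yolk sac excess of Col5a2 thus grew, the yolk sac deficit of Col4a6 shrank, and Lama5 went from lower to higher in the yolk sac. Without the litter D24M15 none of the 3 was called (adjusted p = 0.222, 0.222 and 0.0929), and without the yolk sacs high in Prl8a2 Col4a6 alone was, at 1.24.

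Ratios of chains within a library do not depend on the scaling between libraries. They were tested by permutation with 100000 resamples and Benjamini-Hochberg adjustment over 108 tests of 9 ratios, of which 36 gave an adjusted p under 0.05. Col4a1 exceeded Col4a2 in every library, with geometric mean ratios of 2.51 to 3.26 in the 8 groups, and no tissue difference passed. Under diabetic conditions the ratio was lower in embryos at 7–9 somite pairs (2.51 against 2.91, −0.21 on the log2 scale, permutation adjusted p = 0.0191). Col18a1 to Col4a1 was 1.16 to 1.32 in embryos and 0.194 to 0.223 in yolk sacs, a log2 difference of −2.39 to −2.76 (permutation adjusted p = 0.00054), and the yolk sac was lower in all concepti. Col5a1 to Col5a2 was 1.73 to 2.27 in embryos and 0.676 to 0.903 in yolk sacs (log2 difference −1.07 to −1.54).

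Fibronectin to Col4a1 fell with stage in both tissues and conditions, from 10.9 to 8.76 and 10.1 to 7.34 in embryos and from 3.30 to 2.50 and 3.39 to 2.14 in yolk sacs (normal, then diabetic). Under diabetic conditions at 7–9 somite pairs the ratio of fibronectin to Col4a1 in embryos differed by −0.26 and did not pass (permutation adjusted p = 0.0966). Lamb2 to Lamb1 was higher in the yolk sac in all 4 comparisons, by 0.36 to 0.51 on the log2 scale. Lamb1 to Lamc1 in embryos at 5–6 somite pairs was 5.85 under normal and 3.96 under diabetic conditions (−0.56, permutation adjusted p = 0.00742). Lama1 to Lamc1 was 0.740 and 0.484 there (−0.61, adjusted p = 0.0391), and 0.563 and 0.836 at 7–9 somite pairs (0.57, adjusted p = 0.0238). Lama5 to Lama1 was 2.08 and 1.59 at 7–9 somite pairs (−0.38, adjusted p = 0.0418). These permutations take concepti as independent. With litter means in place of libraries, 0 of 36 diabetic comparisons of ratios passed an exact permutation test, the lowest adjusted p being 0.264, and 5 of 36 had passed with libraries.

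**Figure D5:**
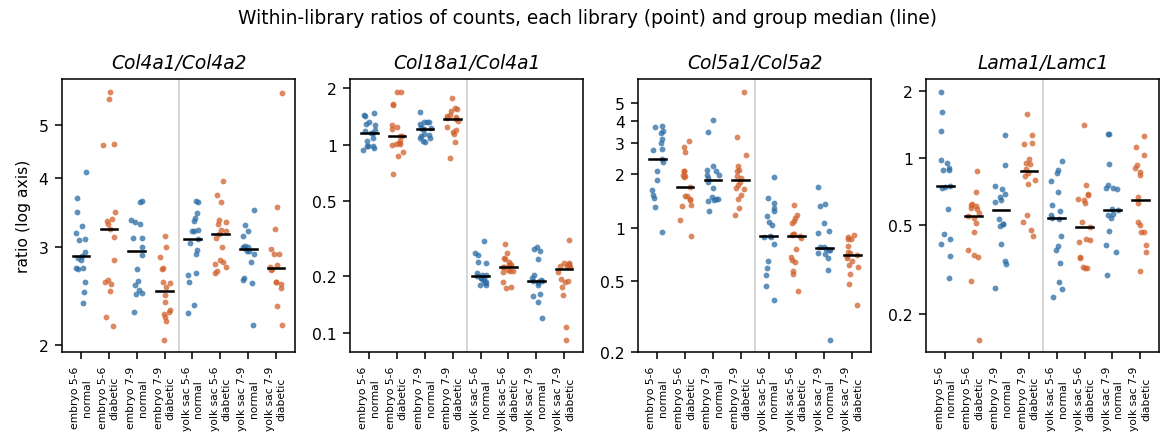
Ratios of chain counts in each library by tissue, stage and maternal condition (blue, normal; orange, diabetic; line, median; log axis). The ratio of Col18a1 to Col4a1 separates the tissues, while that of Col4a1 to Col4a2 lies above 1 in every library of both.

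Pairs of chains were also compared library by library within each group, over 32 relations of 4 pairs. All pairs but Col1a1 and Col3a1, which belong to different collagens, are chains of the same protein. Size factors are shared by both genes of a pair and littermates are not independent, so these are descriptions. Col4a1 and Col4a2 had Pearson's r of 0.50 to 0.89 in the 8 groups (permutation adjusted p at most 0.0718, r 0.45 to 0.86 without the 2 libraries farthest in Col4a1). Spearman's rho was 0.47 to 0.88 (permutation adjusted p at most 0.106). By both measures diabetic embryos at 5–6 somite pairs did not pass, and their r within litters was 0.28. Col1a1 and Col1a2 had r of 0.77 to 0.95 in the 4 yolk sac groups (permutation adjusted p at most 0.000788, r 0.63 to 0.95 without 2 libraries) and −0.17 to 0.72 in embryos. Their rho in yolk sacs was 0.72 to 0.94 (permutation adjusted p at most 0.00463). Col1a1 and Col3a1, of different collagens, had r of 0.77 to 0.84 in yolk sacs (permutation adjusted p at most 0.000788). In embryos their r was 0.13 to 0.63. Lamb1 and Lamc1 had r of −0.36 to 0.51, and no relation of this pair passed.

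A few yolk sacs stood apart. That of conceptus D24M15F (diabetic, 7–9 somite pairs) had 1698 normalized counts of Col4a1, 583 of Col4a2, 254 of Lama1 and 282 of Lamc1, where the medians of the other libraries in its group were 794, 311, 53 and 99.6. Of the 6 markers of parietal endoderm, the cells that line Reichert's membrane, it had 297 of Fst, where the others reached 32.7, and 58.1 of Plat, where they reached 25.2. Its Pth1r (348) and Thbd (13.5) lay within the range of the others, whose medians were 313 and 12.2. Stra6 was at 9.26, where the others reached 3.72, and Gkn2 at 1.68, where they were at 0. That of D28M36C (the same group), the shallowest library with 1017901 counts, had 1516 of Col4a1 and 1436 of Pth1r, where the others reached 425. Its other parietal endoderm markers were at 0 (Fst, Thbd, Stra6 and Gkn2) or at a single count (Plat). That of N28M06A (normal, 5–6 somite pairs) was low in members, with 281 of Col4a1 and 50.3 of Col1a1. Leaving out these 3 yolk sacs, 12 members were called between stages in diabetic yolk sacs. Lama1 (edgeR adjusted p = 0.188) and Col27a1 (0.054) were not among them. With all libraries it was 11 of 19 members, beside 33.7% of all genes. Between tissues under diabetic conditions at 7–9 somite pairs 22 members were called without these 3. With all libraries it was 21 of 22, beside 72.8% of all genes. Sex labels of embryo and yolk sac differ in 2 concepti, and the sex-linked counts of every library match each library's own label, so the stage of those 2 yolk sacs is in doubt.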

How the data were processed

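The authors deposited raw counts per gene, without normalization. Per the labels and the study's methods, libraries were QuantSeq 3′ FWD with unique molecular identifiers, aligned with STAR to mm10, collapsed by identifier and counted with HTSeq, in versions not given in the sources used here. The 4 batch-control duplicates were left out. Members, lists and tests were chosen with earlier results of these data known.

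Counts were tested in R 4.3.3 with edgeR 4.0.16 (TMM, filterByExpr with its minimum count of 10, glmQLFit and glmQLFTest), with an adjusted p under 0.05 as threshold, on the 2 or 4 groups each comparison spans. Checks used DESeq2 1.42.0 and limma 3.58.1, and the script was tested on simulated data. Ratios were log2 with 0.5 added to each count. All members are accounted for, and values are given for those called in a comparison or reaching a group mean of 20 normalized counts. Up to 3 called genes per partner list could be named.

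Embryo and yolk sac of 1 conceptus are the same animal and share its name in the labels. Their deviations from the group means correlated with a median r of 0.102 at 5–6 and 0.0455 at 7–9 somite pairs. Littermates share a dam and are not independent. The correlation that limma estimated between them was 0.251 for embryos and 0.165 for yolk sacs at 5–6 somite pairs, and 0.128 and 0.0992 at 7–9, so that p-values which take concepti as independent are too small to the extent that littermates resemble each other.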

Additional observations from a re-analysis of the deposited data

Results flagged for a closer look

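The diabetic effect on Lamc1, the gamma chain of most laminins, differed between the stages in embryos. Tested directly as an interaction in edgeR, the difference was −0.72 on the log2 scale (adjusted p = 0.0198), from a higher median under diabetic conditions at 5–6 somite pairs to a lower one at 7–9. Lamc1 was the single member called of 25 tested, when 8.7% of all genes were called. Neither stage passed the threshold alone. Heart marker sums changed side between the same groups (1403 normal and 1109 diabetic, then 1571 and 2117), and their part was not tested. By litter means, 7 of 9 diabetic litters lay above the median of the normal litters at 5–6 and 1 of 6 at 7–9 somite pairs.

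The stage difference under diabetic conditions differed between yolk sac and embryo for 3 of 25 members, again by a direct test that called 1.81% of all genes. The interaction in edgeR was 0.57 for Lama5 (adjusted p = 0.0237), 0.76 for Col5a2 (adjusted p = 0.0325) and 0.98 for Col4a6 (adjusted p = 0.0395). The signed stage change was higher in the yolk sac for each, which narrowed the gap between the tissues for Col4a6. Without litter D24M15, which leaves fewer concepti, none was called, at values of 0.55, 0.74 and 1.19 in the same order. The same interaction under normal conditions called 0 of 24 members by edgeR (1 at an unadjusted p under 0.05, 0 by DESeq2), and 0.0435% of all genes. The difference between the conditions was not tested.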

How the results depend on the processing

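Between tissues, 20, 20, 22 and 21 members were called (normal at 5–6 and 7–9, then diabetic), and without a filter on low counts 36, 34, 34 and 35, since more members are then tested. Shares of all genes called are given for the main fits alone, so counts under alternatives have no background beside them. With the conceptus as a replicate block the paired counts were 20, 19, 22 and 21, and the block changed no other call than that of Lamc1. For diabetic against normal, no member was called in any comparison, and leaving out each litter in turn gave 0 to 1 in embryos at either stage and 0 to 0 in yolk sacs at either stage. The calls gained were Lamc1 at 5–6 somite pairs without litter N23M31 or N24M21 (adjusted p = 0.0299 and 0.0448) and Lamb1 at 7–9 without N28M30 (0.0468). The number that opens each library's title as a covariate gave 1 call in embryos at each stage, Lamc1 in both (0.48, adjusted p = 0.0438, and −0.44, adjusted p = 0.0177), where the range over alternatives was 0.0299 to 0.462 and 0.0177 to 0.420. DESeq2 gave 1 call in embryos and 1 in yolk sacs at 7–9 somite pairs.

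Between stages, normal embryos had 5 calls, 1 with all 8 groups in 1 fit and 0 with counts summed per litter, normal yolk sacs 2 and 4 with all 8 groups in 1 fit, diabetic embryos 6 and 3 with counts summed per litter, and diabetic yolk sacs 11 and 7 without yolk sacs high in Prl8a2. The stage by diabetes interaction in embryos gave 1 call and 2 with littermates as a random block. The tissue by stage interaction under diabetic conditions gave 3 calls, 1 without yolk sacs high in Prl8a2 and 0 without litter D24M15. The causes were not tested. Diabetic comparisons of ratios passed 5 times with libraries and 0 times with litter means. No log2 fold change of a called member reversed, with 852 values under alternatives on the same side of the threshold and 63 no longer past it. Leaving out libraries high in Prl8a2, 3 yolk sacs that stood apart and litter D24M15, and litter means of ratios, were chosen after seeing the data.

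At this depth, nothing can be said of the 12 members with a mean below 1.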
